A study of Mus musculus with 6 samples.

Results

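The genes described here mark the T cells, natural killer (NK) cells and B cells of epididymal white adipose tissue (eWAT), the fat pad that lies along the epididymis. They are Cd3d, Cd3e, Cd3g, Cd4, Cd8a, Nkg7, Cd79a, Cd79b, Ms4a1 and Jchain, 10 genes chosen by name from the 40213 genes of the deposited table. All 10 were found in it, and 9 passed the filter on low counts. The tissue came from 3 male RFP KO mice (RFP KO-HFD) and 3 male WT mice (WT-HFD), all of them fed a high-fat diet. RFP, the Ret finger protein, is encoded by Trim27 and was deleted throughout the body of the RFP KO mice, whose controls were WT littermates. The diet held 60% fat, began at 8 to 10 weeks of age and lasted 12 weeks in both groups, so that none of the libraries came from mice on a normal diet. The strain was not given in the sources used here. The labels name the cell type as adipocyte, but the libraries were made from the tissue, and genes of several other cell types were counted in them.

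T cells recognize antigen through a receptor that has no signalling tail of its own and relies on the CD3 chains bound to it. B cells carry a surface immunoglobulin that signals through the Cd79a and Cd79b chains, and plasma cells, which descend from B cells, secrete antibody. In fat of obese mice, CD8 T cells, helper and regulatory CD4 T cells, B cells and NK cells lie among macrophages and have been tied to inflammation of the tissue.

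Total counts ranged from 4870239 to 13924363 in the RFP KO-HFD libraries and from 15216306 to 17215047 in the WT-HFD libraries. Libraries of both groups stood apart from the rest. The library labelled RFP KO-HFD 1 was the shallowest, had a count for 10758 genes against 16396 to 20278 in the others, and drew 20.6% of its counts from mitochondrial protein-coding genes against 3.33% to 7.62%. It held no count of Adipoq, the adipocyte hormone adiponectin, which had 21160 to 28300 counts in the other 5. Its 13 hepatocyte genes summed to 28600 CPM (counts scaled to library size with TMM factors). They summed to 1890 and 4450 CPM in RFP KO-HFD 2 and 3, and to 209, 490 and 291 CPM in the WT-HFD libraries. Each RFP KO-HFD library thus lay above each WT-HFD library for this list. The library labelled WT-HFD 2 held 7424 counts of Crisp1, a secreted protein of the epididymal epithelium, which had 0 to 14 counts in the others. RFP KO-HFD 3 had a count for 16396 genes, fewer than the 20046 to 20278 of RFP KO-HFD 2 and the WT-HFD libraries, and its 6 red blood cell genes summed to 11300 CPM, against 970 to 2760 CPM elsewhere. Trim27 had 19.4, 4.10 and 4.63 CPM in the RFP KO-HFD libraries 1 to 3, against 22.7, 40.2 and 29.5 CPM in the WT-HFD libraries, so that the library labelled RFP KO-HFD 1 lay close to the lowest WT-HFD library. The log2 fold change of Trim27 was -1.72 ± 0.75 (SE; adjusted p = 0.76, edgeR's quasi-likelihood test with Benjamini-Hochberg adjustment over 14706 genes). Without RFP KO-HFD 1 it was -2.83, and the fold changes of the lymphocyte genes were likewise fitted again without these libraries.

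None of the 9 tested lymphocyte genes differed between the RFP KO-HFD and WT-HFD groups at an adjusted p under 0.05 in edgeR, where 0 of all 14706 genes tested did (0%). At an unadjusted p under 0.05 there were 992 of these genes, and DESeq2 called 488, limma-voom 0 and limma-voom with quality weights 1039, none of them a lymphocyte gene listed above. By the study's own criteria, a p at or under 0.05 with a log2 fold change of at least 2 in either direction, 0 of the 9 passed against 4.59% of all genes tested. For all 10 genes the 3 RFP KO-HFD libraries and the 3 WT-HFD libraries overlapped, whereas 16% of all tested genes were wholly below WT-HFD in RFP KO-HFD and 7.28% wholly above. Fitted log2 fold changes were below 0 for 8 of the 9 genes and above 0 for Cd8a, with a median of -0.64, beside -0.13 over all genes tested. In bulk tissue, fewer cells of a type and less RNA per cell cannot be told apart.

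**Figure D1:**
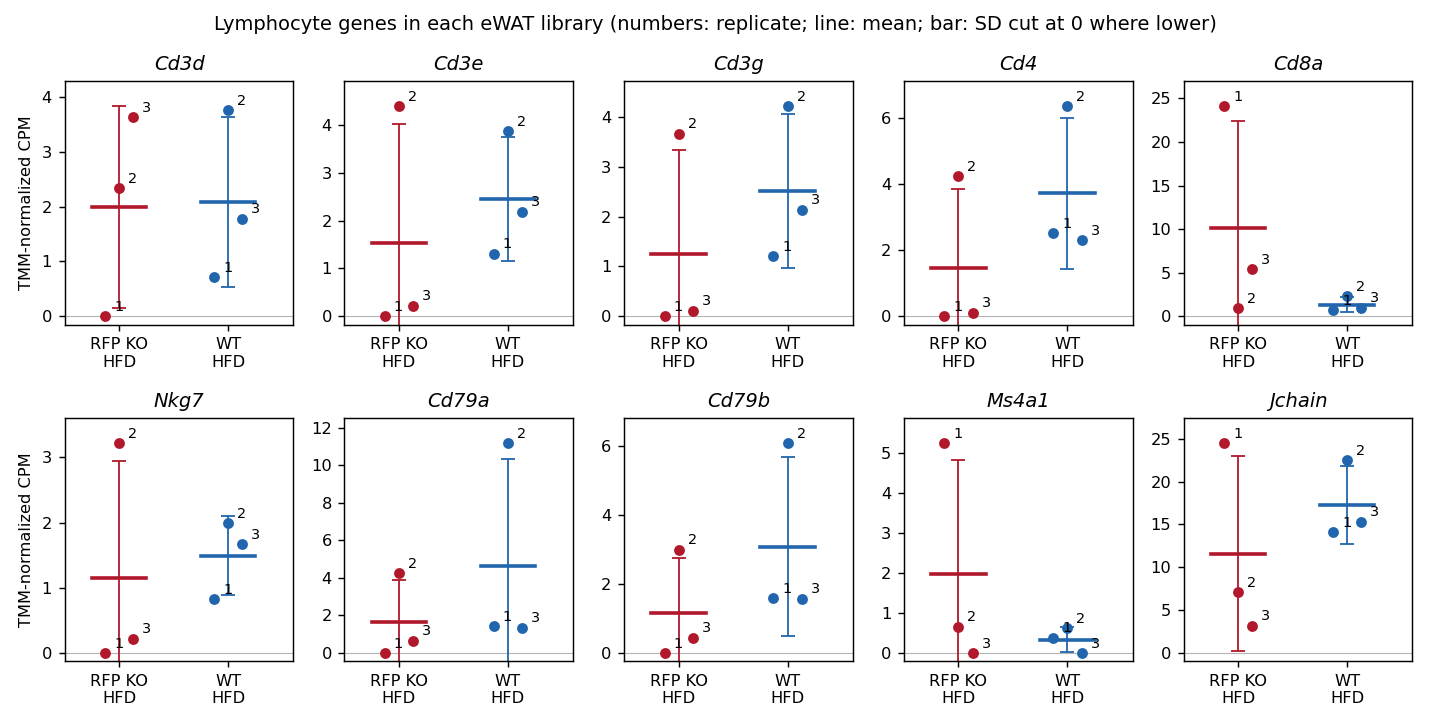
TMM-normalized CPM (vertical axis, its own scale for each gene) of the 10 lymphocyte genes in the 3 RFP KO-HFD libraries (red) and the 3 WT-HFD libraries (blue), with points numbered by replicate, thick lines for the mean and bars for the SD. The groups overlap for every gene, and RFP KO-HFD 1 is at 0 for 7 of the 10.

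Cd3d, Cd3e and Cd3g encode the delta, epsilon and gamma chains of CD3. They lie side by side on chromosome 9 (GRCm39), with Cd3g at 44880870 to 44891729 on the minus strand, Cd3d at 44893067 to 44898350 on the plus strand and Cd3e at 44910033 to 44920961 on the minus strand. Cd3g and Cd3d face away from each other across 1337 bases, and 11682 bases separate Cd3d from Cd3e, with no annotated gene in either gap. The upstream sequence of this divergent pair is shown because the counts of the neighbours parted in a single library, as described below. The windows run from 220 to 21 bases before each start site (RefSeq, GRCm38.p6, each read on its gene's own strand), and capitals mark the core letters that ETS family factors bind, GGAA or TTCC as read on either strand.

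Cd3g: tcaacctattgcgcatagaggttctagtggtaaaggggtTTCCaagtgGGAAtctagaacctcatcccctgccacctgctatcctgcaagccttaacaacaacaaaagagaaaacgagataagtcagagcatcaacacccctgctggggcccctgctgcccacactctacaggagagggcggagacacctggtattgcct
Cd3d: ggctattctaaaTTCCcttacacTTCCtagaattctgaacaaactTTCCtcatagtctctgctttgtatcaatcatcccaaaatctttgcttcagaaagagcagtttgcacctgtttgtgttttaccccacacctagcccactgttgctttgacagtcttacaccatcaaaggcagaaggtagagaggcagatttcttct

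The core was found 2 times upstream of Cd3g and 3 times upstream of Cd3d, and at least once in 88.8% of all 32851 promoter windows of this length. The E-box letters CANNTG occurred 3 times for Cd3g and 1 time for Cd3d, against 58.6% of all windows with at least 1, and the Runx letters TGTGGT or ACCACA in neither, against 11.5% of all windows.

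The 3 CD3 chains ran together in 4 of the 6 libraries, were all at 0 in RFP KO-HFD 1 and parted in RFP KO-HFD 3. Cd3e had 0, 60 and 2 counts in the RFP KO-HFD libraries 1 to 3, against 24, 68 and 42 in the WT-HFD libraries. Cd3g had 0, 50 and 1 counts in the RFP KO-HFD libraries, against 22, 74 and 41 in the WT-HFD libraries. For both chains, RFP KO-HFD 1 and 3 lay under the whole WT-HFD group, while RFP KO-HFD 2 had the highest Cd3e level of the 6 libraries (4.39 CPM) and a Cd3g level inside the WT-HFD range (3.66 CPM). Cd3d had 0, 32 and 33 counts in the RFP KO-HFD libraries, against 13, 66 and 34 in the WT-HFD libraries, so that RFP KO-HFD 3 lay inside the WT-HFD range for this chain alone of the 3.

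Mean levels were 1.99 ± 1.84 CPM in RFP KO-HFD and 2.08 ± 1.55 CPM in WT-HFD for Cd3d (SD, n = 3 each). They were 1.54 ± 2.47 CPM in RFP KO-HFD and 2.46 ± 1.30 CPM in WT-HFD for Cd3e, and 1.26 ± 2.08 CPM in RFP KO-HFD and 2.52 ± 1.54 CPM in WT-HFD for Cd3g. The log2 fold changes of Cd3d, Cd3e and Cd3g were -0.04 ± 1.42, -0.64 ± 1.56 and -0.95 ± 1.6 (SE), with adjusted p from 0.958 to 0.998 in edgeR. Each was smaller than its standard error in this fit, and limma-voom gave -1.01, -2.37 and -2.65, with adjusted p from 0.566 to 0.796.

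Within RFP KO-HFD 3, Cd3d took 33 of 36 CD3 counts, or 91.7% (95% exact Clopper-Pearson interval 77.5% to 98.2%). In RFP KO-HFD 2 the share of Cd3d was 22.5% (16% to 30.3%), and in the WT-HFD libraries it was 22%, 31.7% and 29.1% (12.3% to 38.5% over their intervals). The intervals cover counting error only. The longest run of identical bases between any 2 transcripts of the 10 genes and Cd8b1, over 55 pairs, was 15 bases, against reads of 100 bases. The raw counts of the chains by library show the single tall Cd3d bar of RFP KO-HFD 3 beside near-empty bars for its partners.

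**Figure D2:**
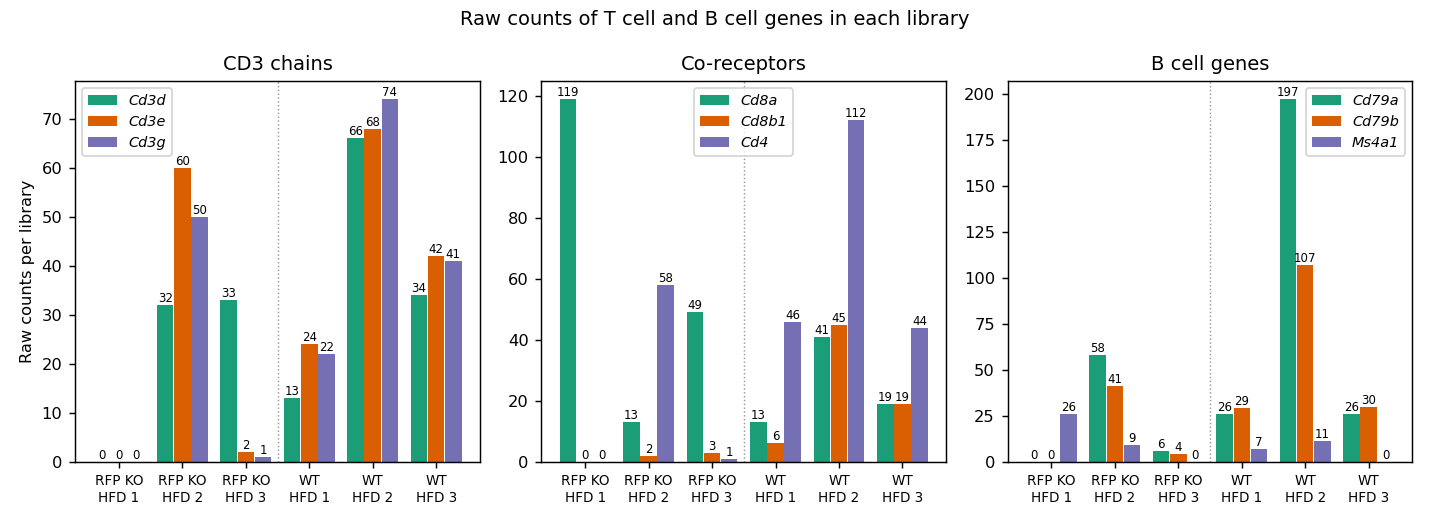
Raw counts per library (vertical axis) of the CD3 chains (left), the co-receptors Cd8a, Cd8b1 and Cd4 (middle) and the B cell genes Cd79a, Cd79b and Ms4a1 (right), with RFP KO-HFD libraries left of the dotted line, WT-HFD libraries right of it and the count above each bar. Cd3d stands without Cd3e and Cd3g in RFP KO-HFD 3, and Cd8a without Cd8b1 or Cd4 in RFP KO-HFD 1.

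The same libraries held many genes of this level at 0, and how often genes that otherwise run together parted in them was not tested. Genes that averaged 1 to 5 CPM of the library total in the other 5 libraries were at 0 counts in RFP KO-HFD 1 in 67.5% of cases (2410 of 3572) and in RFP KO-HFD 3 in 22.2% (747 of 3364), against 5.06% to 5.65% in the other 4 libraries. Of the 8 lymphocyte genes at this level, 7 were at 0 in RFP KO-HFD 1, and Cd8a was at 13.3 times the mean of the other 5. In that library 15% of all genes of this level (536 of 3572) were at 5 times that mean or more. This share was 0% to 5.72% in the other libraries. For RFP KO-HFD 2 and 3 the 8 genes at this level held Ms4a1 in place of Cd8a. In RFP KO-HFD 3, 5 of the 8 were at 3 counts or fewer, where 32.7% of all genes of this level were. In RFP KO-HFD 2 none of the 8 was at 3 counts or fewer, where 10.6% of all genes of this level were. At the depth of RFP KO-HFD 1 a count of 0 allows up to 0.616 CPM (3 counts of the library total), and its floor is the highest of the 6 libraries.

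Cd4 and Cd8a encode the co-receptors that hold the T cell receptor to MHC class II and class I, and Cd4 marks helper and regulatory T cells. Cd4 lies on chromosome 6 (GRCm39, 124841656 to 124865210, minus strand). It had 0, 58 and 1 counts in the RFP KO-HFD libraries 1 to 3, against 46, 112 and 44 in the WT-HFD libraries. RFP KO-HFD 2 lay between the WT-HFD libraries and the other RFP KO-HFD libraries were under all of them, as for Cd3g. Its mean was 1.45 ± 2.42 CPM in RFP KO-HFD and 3.73 ± 2.29 CPM in WT-HFD (SD, n = 3 each), and its log2 fold change was -1.31 ± 1.65 (SE; edgeR adjusted p = 0.944).

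Cd8a alone of the 9 tested genes had a fold change above 0. The alpha chain of CD8 pairs with the beta chain, encoded by Cd8b1, on cytotoxic T cells, and in mice it is also carried, as a dimer with itself, by a class of dendritic cells. Cd8a lies on chromosome 6 (GRCm39, 71350411 to 71356155, plus strand), 35934 bases from Cd8b1. It had 119, 13 and 49 counts in the RFP KO-HFD libraries 1 to 3, against 13, 41 and 19 in the WT-HFD libraries. After scaling for depth, RFP KO-HFD 1 and 3 (24.1 and 5.4 CPM) lay above every WT-HFD library (0.711, 2.33 and 0.992 CPM), and RFP KO-HFD 2 (0.951 CPM) lay among them. The log2 fold change was 2.90 ± 1.34 (SE; adjusted p = 0.767 in edgeR), and it was 1.21 ± 0.92 without RFP KO-HFD 1 (adjusted p = 0.449 in edgeR).

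Cd8b1 was too low to be tested. It had 0, 2 and 3 counts in the RFP KO-HFD libraries, against 6, 45 and 19 in the WT-HFD libraries, which did not overlap before scaling for depth. After scaling they did, with 0, 0.146 and 0.330 CPM in the RFP KO-HFD libraries, against 0.328, 2.56 and 0.992 CPM in the WT-HFD libraries. There were 0, 0.154 and 0.0612 Cd8b1 counts for each Cd8a count in the RFP KO-HFD libraries, against 0.462, 1.10 and 1 in the WT-HFD libraries. The ratio of Cd4 to Cd8a counts was 0, 4.46 and 0.0204 in the RFP KO-HFD libraries and 3.54, 2.73 and 2.32 in the WT-HFD libraries. Both ratios are set within a library, so that scaling for depth does not enter them, but depth sets their precision. The lower Cd8b1 to Cd8a ratio was seen in 3 of 3 RFP KO-HFD libraries and the lower Cd4 to Cd8a ratio in 2 of 3. These ratios rest on few counts, such as 2 of Cd8b1 for 13 of Cd8a in RFP KO-HFD 2, against 6 for 13 in WT-HFD 1. In RFP KO-HFD 1 most genes of such low level were at 0. No interval was taken for these ratios.

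A list of dendritic cell genes, like Cd8a, had its highest summed level in RFP KO-HFD 1, although 3 of its genes were at 0 there. The 10 genes of the list summed to 1940, 222 and 312 CPM in the RFP KO-HFD libraries, against 289, 182 and 294 CPM in the WT-HFD libraries. Xcr1, a chemokine receptor of the dendritic cells that can carry CD8 alpha, had 316, 6.14 and 17.8 CPM in the RFP KO-HFD libraries, against 1.42, 2.62 and 2.25 CPM in the WT-HFD libraries, with no overlap. Clec9a, a receptor of the same cells for dead-cell debris, had 99.5, 4.90 and 8.26 CPM in the RFP KO-HFD libraries, against 1.31, 2.22 and 1.41 CPM in the WT-HFD libraries, again with no overlap. Flt3, the growth factor receptor that dendritic cells need, had 232, 5.70 and 24.9 CPM in the RFP KO-HFD libraries, against 2.63, 2.79 and 1.98 CPM in the WT-HFD libraries.

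Xcr1, Clec9a and Flt3 had log2 fold changes of 5.75 ± 1.62, 4.50 ± 1.32 and 5.14 ± 1.41 (SE), all with an adjusted p of 0.599 in edgeR. Of the 10 genes on the list, 5 were higher at an unadjusted p under 0.05 and none lower, against 4.05% of all genes tested that were higher and 2.70% that were lower, with a median log2 fold change of 2.03, beside -0.13 over all genes tested. Without RFP KO-HFD 1, 4 were higher and 1 lower, against 12.1% and 12.6% of all 15606 genes tested in that fit, and the median was 0.62. In RFP KO-HFD 1, Clec10a, Cd209a and Siglech, which mark other classes of dendritic cell, were at 0. Flt3 heads its list; Xcr1 and Clec9a were chosen after their values were seen. Whether these genes bear on the level of Cd8a was not tested.

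Nkg7 encodes a membrane protein of the cytotoxic granules of NK cells and CD8 T cells. It lies on chromosome 7 (GRCm39, 43086562 to 43087670, plus strand). Nkg7 had 0, 44 and 2 counts in the RFP KO-HFD libraries 1 to 3, against 15, 35 and 32 in the WT-HFD libraries. In CPM, RFP KO-HFD 2 (3.22) was the highest of the 6 libraries and the other RFP KO-HFD libraries (0 and 0.220) the lowest, below the WT-HFD libraries (0.821, 1.99 and 1.67). The log2 fold change was -0.33 ± 1.46 (SE; edgeR adjusted p = 0.985).

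Of the 26 genes on a list of NK cells and cytotoxic granules, 9 had counts in RFP KO-HFD 2 alone of the RFP KO-HFD libraries. Another 2 had counts in RFP KO-HFD 3 alone, and 7 had none in any RFP KO-HFD library. Of these 7, Klrc2 had no count in the WT-HFD libraries either, and the others had 9 to 16 counts summed over the WT-HFD libraries. The share of all genes with such a pattern was not taken. Among genes at 1 to 5 CPM, 67.5% were at 0 in RFP KO-HFD 1 and 22.2% in RFP KO-HFD 3. Many genes of the list lay below that level, such as Klrc1 with a mean of 0.237 CPM in WT-HFD, so that these shares are not matched to it. Prf1, the pore-forming perforin, had 0, 32 and 0 counts in the RFP KO-HFD libraries, against 17, 13 and 8 in the WT-HFD libraries. Gzma, the protease granzyme A, had 0, 18 and 0 counts in the RFP KO-HFD libraries, against 24, 13 and 19 in the WT-HFD libraries. Klrb1c, the NK1.1 receptor of NK cells, had 0, 22 and 0 counts in the RFP KO-HFD libraries, against 24, 16 and 15 in the WT-HFD libraries. These 3 genes were chosen after their values were seen. Klrd1, another gene of the list chosen in this way, was at 0 in RFP KO-HFD 2. It had 89, 0 and 3 counts in the RFP KO-HFD libraries, against 1, 7 and 8 in the WT-HFD libraries.

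Of the 26 genes on that list, 9 were tested, and 1 was higher and 0 lower at an unadjusted p under 0.05 in edgeR. Of all genes tested, 4.05% were higher and 2.70% lower. The median log2 fold change of the list was -0.38, which turned to 0.58 without RFP KO-HFD 1. The gene that was higher was Klrk1, the activating receptor NKG2D, with 42.5, 1.32 and 6.94 CPM in the RFP KO-HFD libraries, against 2.13, 0.797 and 2.25 CPM in the WT-HFD libraries. As for Cd8a, RFP KO-HFD 1 and 3 lay above all WT-HFD libraries and RFP KO-HFD 2 lay among them. Ccl5, a chemokine of cytotoxic cells, had 0, 16.7 and 9.36 CPM in the RFP KO-HFD libraries, against 5.53, 11.6 and 6.94 CPM in the WT-HFD libraries. Tyrobp and Fcgr3, at the highest mean CPM of the list, are also expressed by macrophages and had adjusted p of 0.935 and 0.959 in edgeR.

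Cd79a and Cd79b encode the signalling chains of the B cell receptor. Cd79a lies on chromosome 7 (GRCm39, 24596922 to 24601283, plus strand) and Cd79b on chromosome 11 (GRCm39, 106202167 to 106205388, minus strand). Cd79a had 0, 58 and 6 counts in the RFP KO-HFD libraries 1 to 3, against 26, 197 and 26 in the WT-HFD libraries. Cd79b had 0, 41 and 4 counts in the RFP KO-HFD libraries, against 29, 107 and 30 in the WT-HFD libraries. The chains kept the same order of libraries, with WT-HFD 2 the highest, RFP KO-HFD 2 next and RFP KO-HFD 1 and 3 at the bottom.

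Mean levels were 1.63 ± 2.28 CPM in RFP KO-HFD and 4.66 ± 5.67 CPM in WT-HFD for Cd79a (SD, n = 3 each). For Cd79b they were 1.15 ± 1.62 CPM in RFP KO-HFD and 3.08 ± 2.61 CPM in WT-HFD. The log2 fold changes of Cd79a and Cd79b were -1.47 ± 1.65 and -1.37 ± 1.48 (SE), with adjusted p of 0.939 and 0.931 in edgeR. Without WT-HFD 2 they were 0.25 ± 1.84 and -0.43 ± 1.76, so that the direction of Cd79a turned with that library.

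Other B cell genes were split in WT-HFD 2, which had the highest WT-HFD level for 13 of the 26 matched genes on the B cell list and the lowest for 12, and the list summed to 359 CPM in it, against 514 and 498 CPM in WT-HFD 1 and 3. Cr2, the complement receptor of follicular B cells, had 0, 0 and 7 counts in the RFP KO-HFD libraries, against 1, 34 and 1 in the WT-HFD libraries. Fcer2a, the low-affinity IgE receptor CD23, had 0, 2 and 0 counts in the RFP KO-HFD libraries, against 1, 31 and 3 in the WT-HFD libraries. The values of both genes were seen before they were chosen. In the same library, Crisp1 and the other 9 genes of the epididymal epithelium list summed to 947 CPM, against 1.42 to 7.17 CPM in the RFP KO-HFD libraries and 0.547 and 0.888 CPM in the other WT-HFD libraries, with 6 of the 10 genes counted in it and Adam7, Lcn8, Defb20 and Cst11 at 0. Most of the 947 CPM came from Crisp1 (423 CPM) and Spink8 (522 CPM). A list of 10 genes of lymph node stroma and follicles summed to 25.9, 111 and 42.1 CPM in the RFP KO-HFD libraries, against 85.9, 103 and 68.9 CPM in the WT-HFD libraries, and its first gene, Cxcl13, was at 0.398 CPM in WT-HFD 2. Their part in the B cell counts was not tested.

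Ms4a1 encodes CD20, a membrane protein of mature B cells, and lies on chromosome 19 (GRCm39, 11227043 to 11243513, minus strand). It was the gene of the 10 too low to judge, since it did not pass the filter on low counts. It had 26, 9 and 0 counts in the RFP KO-HFD libraries 1 to 3, against 7, 11 and 0 in the WT-HFD libraries. The 26 counts of RFP KO-HFD 1, in the library without a count of Cd79a or Cd79b, were 14.9 times the mean level of the other 5 libraries, while the remaining RFP KO-HFD libraries lay at or near the WT-HFD libraries. The summed counts, 35 in RFP KO-HFD and 18 in WT-HFD, gave a depth-scaled ratio of 3.86 (95% exact interval 2.13 to 7.24, counting error only), and this ratio rests on RFP KO-HFD 1. Ms4a1 overlaps the long non-coding gene 4930526L06Rik on the opposite strand, and whether strand was used in counting was not given in the sources used here.

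Jchain encodes the joining chain that plasma cells build into IgM and IgA. It lies on chromosome 5 (GRCm39, 88667663 to 88675667, minus strand). Jchain had 121, 97 and 29 counts in the RFP KO-HFD libraries 1 to 3, against 258, 396 and 293 in the WT-HFD libraries, so that every raw count was lower in RFP KO-HFD. After scaling for depth it had 24.5, 7.09 and 3.19 CPM in the RFP KO-HFD libraries, against 14.1, 22.5 and 15.3 CPM in the WT-HFD libraries. RFP KO-HFD 1, the shallowest library, was then the highest of the 6, and the other RFP KO-HFD libraries were the lowest.

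The mean of Jchain was 11.6 ± 11.3 CPM in RFP KO-HFD and 17.3 ± 4.56 CPM in WT-HFD (SD, n = 3 each), and its log2 fold change was -0.59 ± 0.83 (SE; edgeR adjusted p = 0.949). Leaving out RFP KO-HFD 1 gave -1.75 ± 0.44 (adjusted p = 0.114 in edgeR), and leaving out both RFP KO-HFD 1 and WT-HFD 2 gave -1.51 ± 0.44 (adjusted p = 0.104 in edgeR). In both fits the unadjusted p was under 0.05 and the adjusted p was not, and 12.6% and 17% of all genes tested in these fits were likewise lower at an unadjusted p under 0.05.

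Set against Ptprc, the CD45 phosphatase of all white blood cells, the CD3 and Cd79 genes again overlapped between the groups. Ptprc had 252, 16.7 and 31.7 CPM in the RFP KO-HFD libraries, against 32.1, 14.5 and 35.5 CPM in the WT-HFD libraries (edgeR adjusted p = 0.818). There were 0, 62.0 and 12.5 CD3 counts for each 100 Ptprc counts in the RFP KO-HFD libraries, against 10.1, 81.9 and 17.2 in the WT-HFD libraries. For Cd79a and Cd79b together there were 0, 43.2 and 3.47 in the RFP KO-HFD libraries, against 9.39, 120 and 8.25 in the WT-HFD libraries. RFP KO-HFD 2 and WT-HFD 2 were the highest of their groups on both measures. The 10 genes together had 53.8, 33.8 and 14.0 CPM in the RFP KO-HFD libraries, against 24.8, 63.0 and 29.3 CPM in the WT-HFD libraries.

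**Figure D3:**
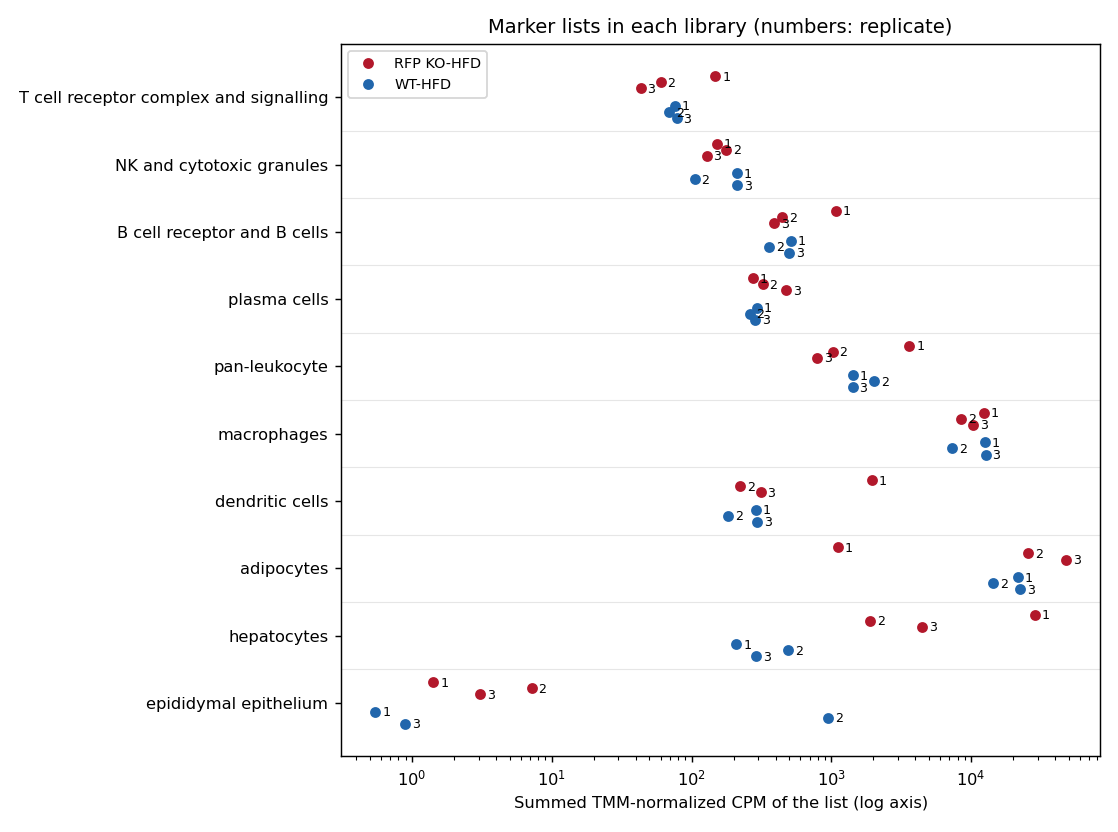
Summed TMM-normalized CPM (horizontal log axis) of 10 marker lists in the RFP KO-HFD libraries (red, upper points of each row) and the WT-HFD libraries (blue, lower points), numbered by replicate. The T cell receptor, NK, B cell and plasma cell lists overlap between the groups, the dendritic cell list is at 1940 CPM in RFP KO-HFD 1 and the epididymal epithelium list at 947 CPM in WT-HFD 2.

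Other genes of the T cell receptor pathway gave no call either. Of the 19 matched genes on that list, 15 were tested, 0 passed at an adjusted or an unadjusted p under 0.05 in either direction, and the median log2 fold change was -0.67. Fyn, a kinase that phosphorylates the CD3 tails, had 82.9, 18.9 and 11.7 CPM in the RFP KO-HFD libraries, against 29.6, 17.2 and 27.9 CPM in the WT-HFD libraries. Lcp2, the adaptor SLP-76, had 25.5, 11.9 and 9.80 CPM in the RFP KO-HFD libraries, against 17.8, 10.5 and 18.9 CPM in the WT-HFD libraries. Both overlapped between the groups, as did Rhoh and Cd5. In RFP KO-HFD 1, Fyn and Lcp2 had 410 and 126 counts, although the 3 CD3 chains were at 0 there. They made up 82.9 and 25.5 CPM of the 148 CPM of the list in that library. The cells that Fyn and Lcp2 came from were not tested. Cd247, the zeta chain that completes the receptor complex, had 0, 35 and 22 counts in the RFP KO-HFD libraries, against 74, 53 and 92 in the WT-HFD libraries, with no overlap but an adjusted p of 0.93 in edgeR; it was chosen after its values were seen.

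Among the 26 genes of T cell subsets and transcription factors, 17 were tested, with a median log2 fold change of -0.32. At an unadjusted p under 0.05 in edgeR, 2 were higher and 2 lower. Of all genes tested, 4.05% were higher and 2.70% lower. The receptor for interleukin-7, Il7r, which keeps resting T cells alive, had 0, 38 and 3 counts in the RFP KO-HFD libraries, against 577, 159 and 529 in the WT-HFD libraries. Its log2 fold change was -4.37 ± 1.46 (SE; adjusted p = 0.642 in edgeR), and the groups did not overlap. Of the WT-HFD libraries, Il7r was lowest in WT-HFD 2, where Cd3e was highest (24, 68 and 42 counts). The macrophage gene Adgre1 was also lowest there (3004, 911 and 2843 counts). The cells that Il7r came from were not tested. Gata3, the transcription factor of type 2 helper cells, had 16, 23 and 7 counts in the RFP KO-HFD libraries, against 30, 3152 and 42 in the WT-HFD libraries. It stood high in WT-HFD 2 alone, the library with 947 CPM of the epididymal epithelium list, most of it from Crisp1 and Spink8. There Gata3 was at 179 CPM, beside 3.87 CPM of Cd3e and 6.37 CPM of Cd4. The cells that Gata3 came from were not tested. Cxcr6, a chemokine receptor of tissue T cells, had 0 counts in all 3 RFP KO-HFD libraries, against 11, 16 and 13 in the WT-HFD libraries. It did not pass the filter on low counts and was too low to judge. At the WT-HFD level, 3.99 counts would be expected at the depth of RFP KO-HFD 1. The share of all genes with such a pattern was not taken. Il7r and Cxcr6 were chosen after their values were seen.

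The B cell list had 16 tested genes of 26 matched, with 0 higher and 0 lower at an unadjusted p under 0.05 and a median log2 fold change of 0.44. The genes at its highest mean CPM are shared with other cells of the tissue. Ebf1, a transcription factor of B cells and also of adipocytes and their precursors, had 15.2, 227 and 242 CPM in the RFP KO-HFD libraries, against 129, 119 and 128 CPM in the WT-HFD libraries. Lyn, a kinase of B cells and myeloid cells, had 304, 37.1 and 19.4 CPM in the RFP KO-HFD libraries, against 59.8, 30.6 and 57.2 CPM in the WT-HFD libraries. Without RFP KO-HFD 1 the median of the list was -0.58, beside -0.07 over all genes tested, so that its direction turned with that library.

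On the plasma cell list, 10 of 11 matched genes were tested, 0 were higher and 0 lower at an unadjusted p under 0.05, and the median log2 fold change was -0.50. Xbp1, which drives secretion in plasma cells and in other secretory cells, had 92.2, 183 and 347 CPM in the RFP KO-HFD libraries, against 101, 81.2 and 94.3 CPM in the WT-HFD libraries. Sdc1, the plasma cell proteoglycan CD138, which epithelial cells also carry, had 65.3, 27.6 and 18.3 CPM in the RFP KO-HFD libraries, against 61.8, 52.3 and 62.0 CPM in the WT-HFD libraries. Both overlapped between the groups.

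Over the 5 T cell, NK, B cell and plasma cell lists together, 67 of 108 matched genes were tested, and 10 of the 67 were wholly below WT-HFD in RFP KO-HFD and 4 wholly above. Among all tested genes these shares were 16% and 7.28%. The genes wholly below were Cd247, Cd2, Il2ra, Il7r, Thy1, Ctsw, Blnk, Cd55, Prdm1 and Fkbp11, and those wholly above included Cxcr3 and Itgae. None of the 67 passed at an adjusted p under 0.05 in edgeR. The symbols listed for the constant regions of the T cell receptor and of the immunoglobulins matched no gene of the deposited table, so that these regions were not analysed here.

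What the fold changes said depended on the libraries that entered the fit. Without RFP KO-HFD 2, the only RFP KO-HFD library in which all 10 genes were counted, 5 genes met the study's criteria, against 10.5% of the 15263 genes tested in that fit. These were Cd3e at -4.13, Cd3g at -5.04, Cd4 at -5.61, Nkg7 at -3.41 and Cd8a at 3.44 on the log2 scale, with adjusted p from 0.279 to 0.394 in edgeR. Without RFP KO-HFD 1 and WT-HFD 2, the log2 fold changes of Cd3d, Cd3e, Cd3g, Nkg7, Cd79a and Cd79b were 1.24, 0.41, 0.19, 0.48, 0.82 and 0.14, each above 0 where the fit to all 6 libraries had it below 0. In that fit Cd8a was at 1.86 and Cd4 at -0.13, and the adjusted p of these 8 genes ranged from 0.267 to 0.959 in edgeR. Without RFP KO-HFD 3, Nkg7 was at 0.11 and Cd3d at -0.81, and the other tested genes kept their direction. With limma-voom on all 6 libraries the 8 genes below 0 ranged from -3.16 for Cd4 to -1.01 for Cd3d and Cd8a was at 1.88, with adjusted p from 0.566 to 0.796. Of the 9 genes tested with all 6 libraries, Cd4, Cd8a and Jchain kept their direction in every fit that left out libraries.

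**Figure D4:**
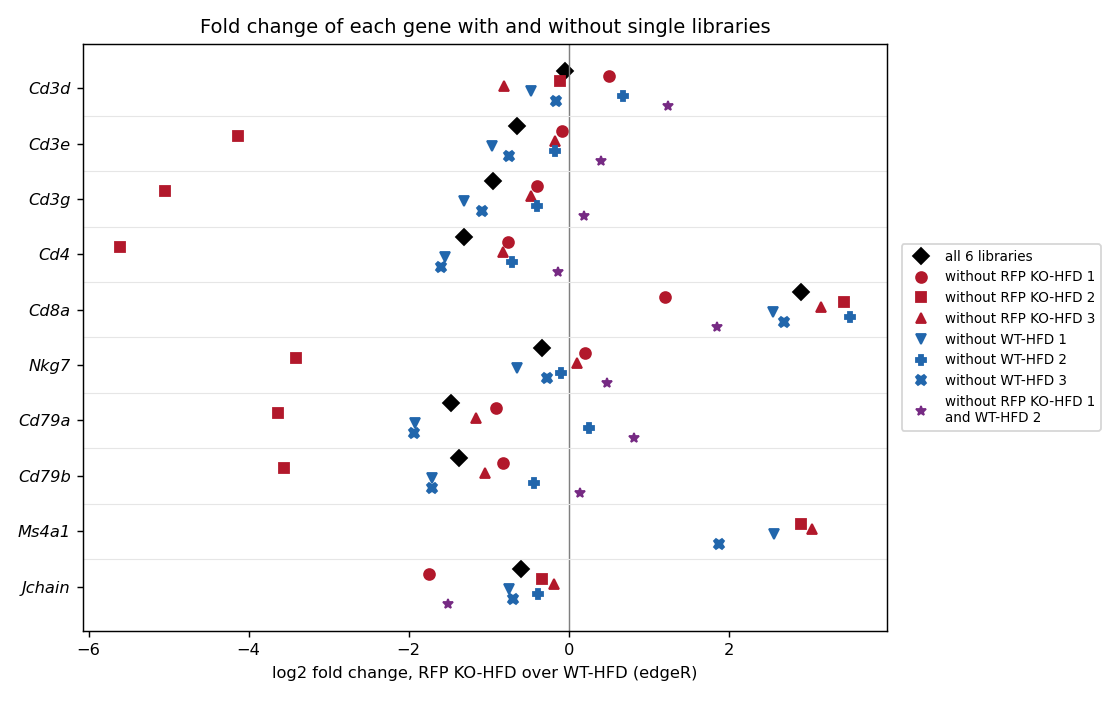
log2 fold change of RFP KO-HFD over WT-HFD in edgeR (horizontal axis) for each lymphocyte gene (rows), with all 6 libraries (black diamond), without each library in turn (red for RFP KO-HFD, blue for WT-HFD) and without RFP KO-HFD 1 and WT-HFD 2 together (purple star). Leaving out RFP KO-HFD 2 moved Cd3e, Cd3g and Cd4 to -4.13, -5.04 and -5.61, and Ms4a1 has points only in fits where it passed the filter on low counts.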

How the data were processed

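Whole eWAT RNA was sequenced with 3 libraries per group, labelled as separate samples, so that p-values measure the spread between these samples. Per the study's methods, Trizol RNA was selected for poly(A) (the labels also name a step of rRNA removal), made into CORALL libraries and sequenced from both ends with reads of 100 bases. Trimming was by Fastp, alignment by STAR and quantification by Salmon. Besides STAR, the submitters' processing notes list FastQC, Trimmomatic and mm10, but the deposited workbook gives GRCm39, the build of the coordinates here. Versions and strand settings were not given in the sources used here. Raw counts per gene and library, as deposited by the authors, were used unchanged. Their log2-normalized values, fold changes and p-values were not used.

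The filterByExpr rule with a min.count of 10 and a min.total.count of 15 left 14706 of 40213 genes, and a gene that did not pass was taken as too low to judge. Kept genes were fitted with edgeR 4.0.16 (glmQLFit and glmQLFTest) in R 4.3.3 after TMM normalization, with a term for genotype only, and p-values were adjusted over all genes tested by the Benjamini-Hochberg method. CPM are TMM-normalized unless said to be of the library total. Alternatives used limma 3.58.1 (voom, plain or with a quality weight per library), DESeq2 1.42.0, other scaling factors and filters, the replicate number as a block and fits without single libraries. The scripts were tested on simulated data. Intervals are exact 95% and cover counting error only, and total counts of 4870239 to 17215047 set the precision.

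The genes and the 15 lists beside them were chosen with earlier results of these data known. The text names the 10 genes, Trim27, Ptprc, the 4 tested genes of highest mean CPM on each leukocyte list and the first gene of each other list where a result touches it. Other named genes were chosen after their values were seen, and some genes are not reported here. Of the 10 genes, 7 were found in the RefSeq promoter table.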

Additional observations from a re-analysis of the deposited data

How the results depend on the processing

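No lymphocyte gene passed an adjusted p under 0.05 in any alternative. DESeq2 called 488 genes of the whole table and limma-voom with quality weights 1039, and without RFP KO-HFD 1 and WT-HFD 2 together edgeR called 507. Genes at the study's criteria numbered 359 with at least 10 counts in every library, 1457 with no filter and 1013 with quality weights, against 675. Of the lymphocyte genes, Cd8a alone met these criteria in 2 of the alternatives on all 6 libraries. With at least 10 counts in every library it was 1 of 2 tested, beside 359 of all 8263 genes tested. With DESeq2 it was 1 of 9 tested, beside 911 of all 14706 genes tested. With at least 10 counts in every library 8 of the 10 were too low to judge, and with no filter 0. The log2 fold change of Cd3d turned to 1.09 with quality weights and to 0.01 with upper-quartile factors, and that of Cd79a to 0.23 with quality weights. Without RFP KO-HFD 1 and WT-HFD 2, Cd3d, Cd3e, Cd3g, Nkg7, Cd79a and Cd79b turned to 1.24, 0.41, 0.19, 0.48, 0.82 and 0.14. Trim27 was at -2.59 both with quality weights and without these libraries, and passed. Scaling by library totals moved the median of all genes tested to -0.50, from -0.13 with TMM, and kept the direction of all 9 genes. Causes were not tested.

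With each library left out in turn, genes called ranged from 0 to 2, genes at the study's criteria from 391 to 1602, lymphocyte genes at these criteria from 0 to 5 and those too low to judge from 0 to 1. On the log2 scale Cd3d ranged from -0.81 to 0.68, Nkg7 from -3.41 to 0.21, Cd79a from -3.63 to 0.25 and Trim27 from -2.83 to -1.36, and Cd3e, Cd3g and Cd79b reached -4.13, -5.04 and -3.56 without RFP KO-HFD 2.

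Samples with the same replicate number did not deviate together (r of 0.0286, 0.0232 and 0.052 for numbers 1, 2 and 3, across genes), although each correlated best with its own number. The replicate block left 0 genes called and 290 at the study's criteria, with 0 lymphocyte genes among them, and put Cd3e at -2.45, Cd3g at -2.88 and Cd4 at -3.32. Depth limits RFP KO-HFD 1 most, where 1 count is worth 0.205 CPM of the library total.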
